A study of Sus scrofa with 8 samples.

Results

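The array targets named miR-126, miR-221 and miR-222 are described here: ssc-miR-126-3p, ssc-miR-126-5p, ssc-miR-221-3p, ssc-miR-221-5p and ssc-miR-222. They were found by their names alone, as all entries with these numbers on either strand, and made up 5 of the 686 miRNA targets and 100 of the 13720 non-control spots of each array. All 5 bore porcine names. The samples were whole luteal tissue, taken post mortem from crossbred gilts of 1 commercial herd that were 6 to 8 months old. The pregnant group held 4 gilts on day 14 of pregnancy, after insemination at 12 and 24 h past the time when the second estrus was seen. The cyclic group held 4 gilts on day 14 of the estrous cycle that were not inseminated. Each array carried the RNA of 1 sample, and the labels number the samples as biological replicates. The corpus luteum is the progesterone-secreting gland formed in the ovary from the ovulated follicle.

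MicroRNAs (miRNAs) are short RNAs that lower the output of the mRNAs they pair with, mainly through the seed at their 5′ end. In mouse and human, miR-126 comes from an intron of EGFL7, a gene of endothelial cells, and is the best-known endothelial miRNA. Its 3p strand represses SPRED1 and PIK3R2 and so raises the response of endothelial cells to VEGF, and its 5p strand represses DLK1 and favours endothelial proliferation. In the same species miR-221 and miR-222 come from 1 transcript, share their seed, repress the cell cycle inhibitor CDKN1B and the receptor KIT, and restrain the migration of endothelial cells. They are not restricted to endothelium. The corpus luteum is rich in capillaries, which grow with the gland and are lost when it regresses. In the pig annotation of RefSeq (Sscrofa11.1), MIR126 lay within the bounds of EGFL7, on a sequence not assigned to a chromosome. MIR221 and MIR222 were direct neighbours on chromosome X, with 0 genes listed between them.

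Signal is given on a log2 scale relative to the 75th percentile of its own array. A value of 0 is therefore that percentile, taken over the targets detected on all arrays. Levels of different targets come from different probes and are not set against each other. On an array, 22.8% to 28.8% of the spots were well above background, and at least 181 targets were detected. Of all targets, 212 were detected on at least 4 arrays and tested. Slide 1 held 2 pregnant arrays (replicates 1 and 2), slide 2 held 2 cyclic arrays (replicates 1 and 2), and slide 3 held 2 arrays of each (replicates 3 and 4). The scan of slide 1 was made on a different day from the others. Pregnant replicate 4 had the lowest 75th percentile, with an intensity of 189 (the highest was 316), and the fewest detected targets.

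Detection on all 8 arrays was reached by 4 of the 5 targets, and miR-221-5p was detected on 0. The intensity of miR-126-3p was 1161 to 2046 over the arrays, against medians of 0.437 to 1.29 for the negative control spots. It was 56.0 to 120 for miR-126-5p, 40.4 to 82.6 for miR-221-3p and 50.3 to 93.6 for miR-222. Both probes of miR-221-5p, the opposite strand of the miR-221 hairpin, stayed between −2.52 and 0.546, not well above background in either group, so no fold is given for it.

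Between pregnant and cyclic glands, 0 of the 4 tested targets passed (limma with Benjamini-Hochberg adjustment over all 212 tested targets, threshold 0.05). Among all tested targets 24, or 11.3%, passed, with 5.19% higher and 6.13% lower in pregnancy. That count depends on the arrays: it was 7 to 81 when 1 array was left out, 81 being without cyclic replicate 1, and 2 with scan day as a block. In all, 73, or 34.4%, had an unadjusted p under 0.05, a level that 0 of the 4 reached. The groups did not overlap in 21 tested targets that were higher (9.91%) and 15 that were lower in pregnancy (7.08%), and they overlapped in all 4 targets described here, each taken at its brightest probe.

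The 3p strand of miR-126 stood at 2.82, 2.81, 2.76 and 3.07 in pregnant replicates 1 to 4, against 2.83, 2.78, 2.59 and 2.62 in cyclic replicates 1 to 4 (log2 scaled signal). Pregnant replicate 4 was the highest and cyclic replicates 3 and 4 the lowest, while the other 5 arrays lay close together. The means were 2.87 ± 0.14 in pregnancy and 2.70 ± 0.12 in the cycle (SD, n = 4 each). The log2 difference was 0.16 ± 0.12 (SE), a 1.12-fold change with a 95% interval of 0.939 to 1.34, and did not pass (limma, adjusted p = 0.362). Without pregnant replicate 4 it was 0.10. On slide 3 alone, the slide with both groups, it was 0.32 (limma, adjusted p = 0.295). The target varied little: its SD over the 8 arrays was 0.15, and 192 of the 212 tested targets had a larger one, the median being 0.28.

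**Figure D1:**
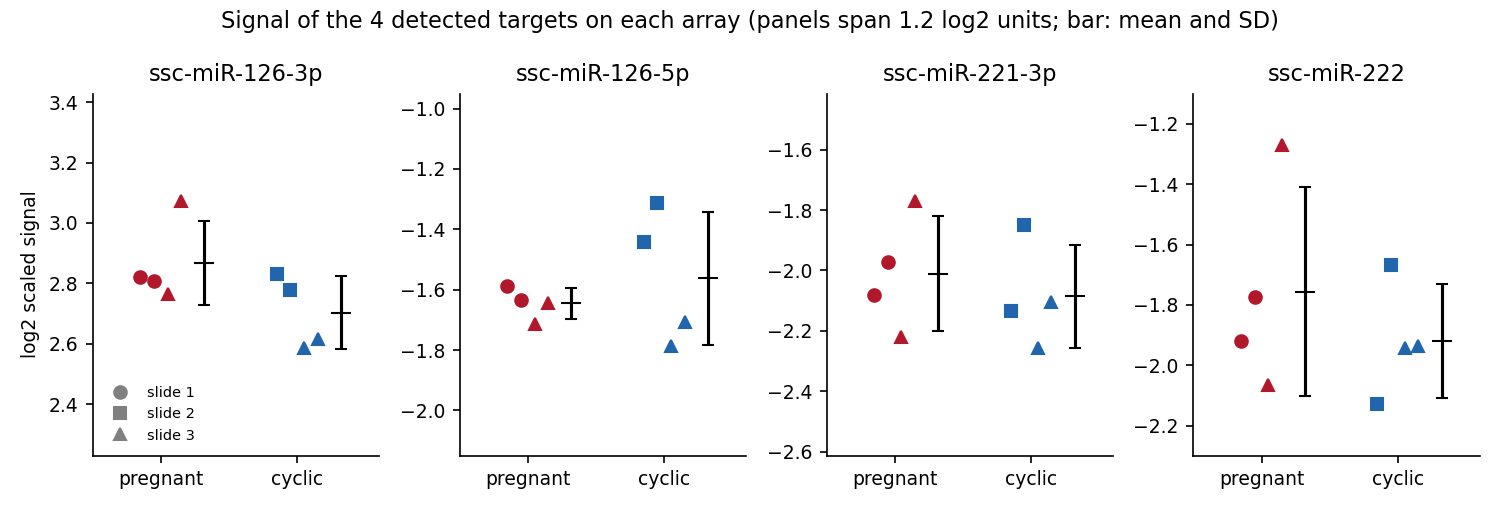
Log2 scaled signal of the 4 detected targets on each array, pregnant (red) left of cyclic (blue), with the slide as the symbol and the mean and SD beside the points. The groups overlap in all 4 panels, and pregnant replicate 4 is the highest array for miR-126-3p (3.07), miR-221-3p (−1.77) and miR-222 (−1.27).

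For the 5p strand of miR-126, the values were −1.59, −1.63, −1.72 and −1.64 in pregnant replicates 1 to 4, against −1.44, −1.31, −1.79 and −1.71 in cyclic replicates 1 to 4. The cyclic arrays of slide 2 were the 2 highest, and the pregnant arrays lay close together within the cyclic range. The means were −1.65 ± 0.05 in pregnancy and −1.56 ± 0.22 in the cycle (SD, n = 4 each). The log2 difference was −0.08 ± 0.14 (SE), or 0.944-fold with a 95% interval of 0.759 to 1.17 (limma, adjusted p = 0.758). Its sign changed with the setting. It was 0.07 within slide 3, and 0.22 with scaling by the 75th percentile over all probes, a setting that raised the median difference of all tested targets by 0.30.

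Beside this stands miR-451, an miRNA of red cells. It stood at 2.62, 1.01, 2.29 and 0.33 in pregnant replicates 1 to 4, against 2.84, 2.25, 0.41 and 0.35 in cyclic replicates 1 to 4. It was high on both cyclic arrays of slide 2 and in pregnant replicate 1, which were the 3 highest arrays for miR-126-5p. It was also high in pregnant replicate 3, the lowest pregnant array for miR-126-5p. Over the 8 arrays its r with miR-126-5p was 0.62, given as a description. Of the 4 erythroid entries on the array, miR-451 and miR-144 were tested and both miR-486 entries were detected on 0 arrays. The summed scaled signal of the list was 1.25 to 6.19 in pregnancy and 1.27 to 7.22 in the cycle. Nearly all of this sum came from miR-451, so it repeats that entry and does not stand for the list as a whole. The part of blood content in the values of miR-126-5p was not tested. In whole tissue, fewer cells of a type and less RNA per cell cannot be told apart.

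The difference 3p minus 5p was taken on each array, where the scaling of the array cancels. The mean differences of both strands, which have opposite signs, were known from these arrays when this contrast was chosen, so its values are a description. It was 4.41, 4.44, 4.48 and 4.72 in pregnant replicates 1 to 4, against 4.28, 4.09, 4.37 and 4.32 in cyclic replicates 1 to 4 (log2). All 4 pregnant arrays lay above all 4 cyclic ones, the lowest pregnant and the highest cyclic array being 0.04 apart. The means were 4.51 ± 0.14 in pregnancy and 4.27 ± 0.12 in the cycle (SD, n = 4 each). The pregnant value was higher by 0.25 ± 0.09 (SE), which is 1.19-fold in favour of the 3p strand. The exact 2-sided permutation p was 0.0286, the smallest that 4 against 4 arrays can give, and given that choice it is not independent evidence. Adjusted over 2 such differences it was 0.0571, which did not pass. With the other difference at 0.971 (exact permutation) it could not have passed. For comparison, strands of other hairpins were paired where their names differed only in the 3p or 5p suffix. Pairs named otherwise, such as ssc-miR-21 and mmu-miR-21a-3p, were not counted. Of 13 hairpins paired in this way, with both strands detected on all arrays, 4, or 30.8%, had groups that did not overlap. With pregnancy higher it was 23.1%. The other 3, named after their values were seen, were miR-140 (0.51), miR-532 (0.32) and hsa-miR-125a (−1.55), and over the 13 the median size of the difference was 0.08.

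Each strand had 2 probes, and the 4 possible pairs of a 3p and a 5p probe gave 0.22 to 0.31, with separated groups in each. The pairs share arrays and probes, and the 3p probes ran almost alike (r = 1.00), so they are not separate checks. Within slide 3 the strand difference was 0.25, and over the 6 arrays scanned together on 1 day 0.33. Slide or scan day as a block gave the same values as these subsets and is no further check. Settings that change only the scaling factor of an array, or the floor, left the strand difference at 0.25. Scaling cancels in it and its probes lie above the floor, so these settings could not move it. Without pregnant replicate 4 it was 0.18, and without cyclic replicate 2 it was 0.19. With normexp background correction the difference was 0.21, and with quantile normalization 0.18. The values of the authors' deposited table gave 0.22. In these 3 settings the sign was kept, but the groups were no longer as far apart as 4 against 4 arrays allow. The unadjusted exact permutation p was 0.0571 with normexp, 0.486 with quantile normalization and 0.371 with the authors' table.

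Markers of leukocytes are given beside this. Their summed scaled signal was 0.681 to 0.821 in pregnancy and 0.652 to 4.79 in the cycle. The highest sum was that of cyclic replicate 4, and most of it came from hsa-miR-223-3p. The list holds miR-155 both as ssc-miR-155-5p and as bta-miR-155. Of the 11 entries, 5 were detected on 0 arrays, and of the 6 tested 0 were higher and 1, miR-155-5p, was lower, against 5.19% and 6.13% of all tested targets. The difference was negative in 5 of the 6. It was −2.29 for hsa-miR-223-3p, a miRNA of myeloid cells (limma, adjusted p = 0.0768), which varied widely within the cycle, being at −3.16 in cyclic replicate 1 and at 1.74 in cyclic replicate 4. The part of leukocytes in the strand difference was not tested.

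**Figure D2:**
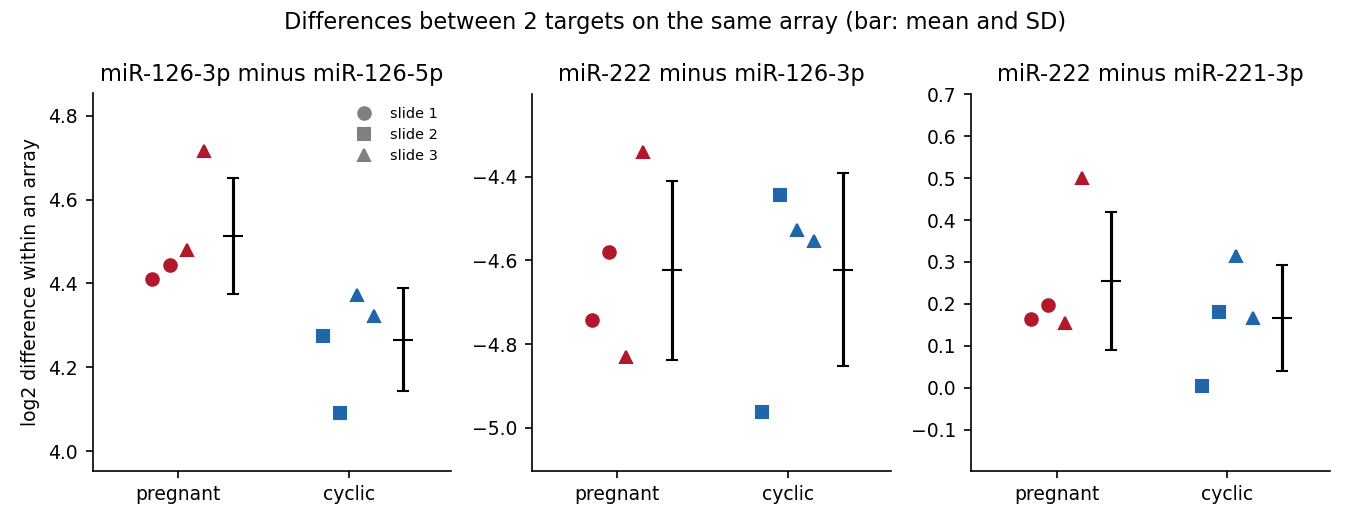
Log2 differences between 2 targets on the same array for miR-126-3p minus miR-126-5p, miR-222 minus miR-126-3p and miR-222 minus miR-221-3p, pregnant (red) left of cyclic (blue), with the mean and SD beside the points and the slide as the symbol. The groups are apart in the first panel (4.41 to 4.72 in pregnancy, 4.09 to 4.37 in the cycle) and overlap in the other panels.

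In the miR-221 and miR-222 cluster, miR-221-3p stood at −2.08, −1.97, −2.22 and −1.77 in pregnant replicates 1 to 4, against −2.13, −1.85, −2.26 and −2.10 in cyclic replicates 1 to 4. The groups ran over nearly the same range, with the top array of each (pregnant replicate 4 and cyclic replicate 2) above the rest of its group. The means were −2.01 ± 0.19 in pregnancy and −2.09 ± 0.17 in the cycle (SD, n = 4 each). The log2 difference was 0.07 ± 0.15 (SE), a 1.05-fold change with a 95% interval of 0.832 to 1.33 (limma, adjusted p = 0.797), and it was −0.01 without pregnant replicate 4.

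For miR-222 the values were −1.92, −1.77, −2.07 and −1.27 in pregnant replicates 1 to 4, against −2.13, −1.67, −1.94 and −1.94 in cyclic replicates 1 to 4. Pregnant replicate 4 was the highest of the 8 arrays and cyclic replicate 1 the lowest, and the other 3 pregnant arrays lay within the cyclic range. The means were −1.76 ± 0.35 in pregnancy and −1.92 ± 0.19 in the cycle (SD, n = 4 each). The log2 difference was 0.16 ± 0.19 (SE), a 1.12-fold change with a 95% interval of 0.840 to 1.49 (limma, adjusted p = 0.643). It was 0.00029 without pregnant replicate 4, so its size rested on that array. Its SD over the 8 arrays was 0.27, the widest of the 4 targets and close to the median of all tested targets.

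**Figure D3:**
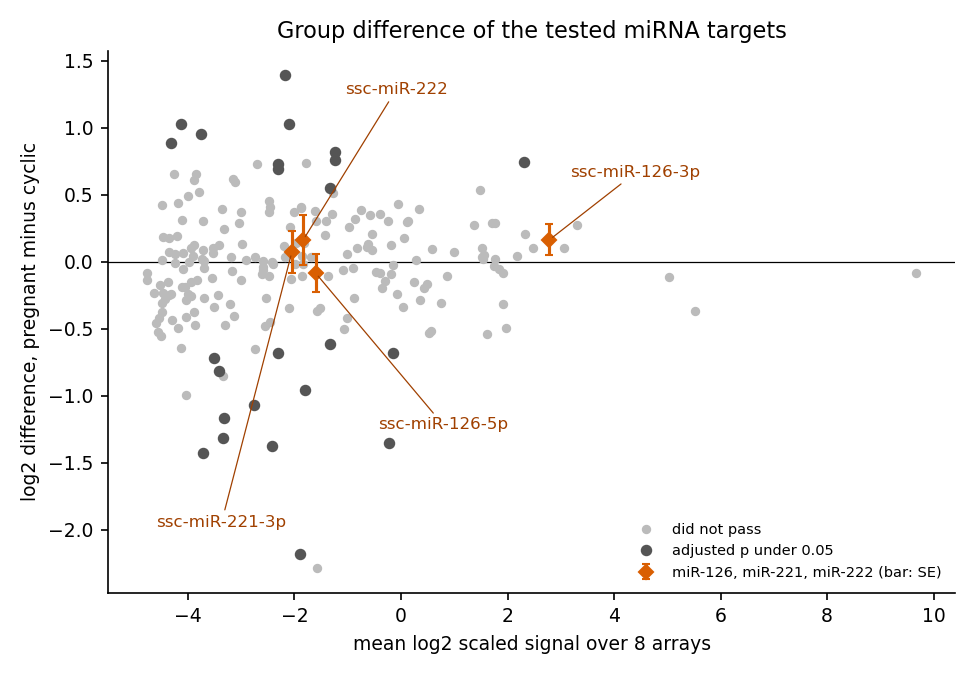
Log2 difference between pregnant and cyclic glands against mean log2 scaled signal for the 212 tested targets; dark points passed at an adjusted p under 0.05, and the orange diamonds with SE bars are the 4 targets described here. The diamonds lie between −0.08 and 0.16, while the targets that passed lie at least 0.55 from 0.

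Both probes of a target gave differences of the same sign. The log2 differences of the brighter and the dimmer probe were 0.16 and 0.14 for miR-126-3p, −0.08 and −0.14 for miR-126-5p, 0.07 and 0.10 for miR-221-3p, and 0.16 and 0.16 for miR-222. Over the 8 arrays the probes of a target correlated at r = 1.00 for miR-126-3p, 0.99 for miR-222, 0.91 for miR-221-3p and 0.72 for miR-126-5p, given as a description. The dimmer probe of miR-126-5p reached an intensity of 10.9 to 19.7, and its spots varied by a median of 12.5% within an array, against 5.74% for the brighter one. On this dimmer probe the groups did not overlap: it stood at −4.08, −4.18, −4.11 and −4.12 in pregnant replicates 1 to 4, against −3.91, −3.91, −4.05 and −4.04 in cyclic replicates 1 to 4. On the brighter probe they overlapped. Among all tested targets, each at its brightest probe, groups did not overlap in 9.91% with pregnancy higher and 7.08% with pregnancy lower. No such share was taken over all probes, so the separation on the dimmer probe is a description. Another probe of miR-221-3p was detected on 1 array and is not read. Spots of the probes used for the targets varied by a median of 4.74% to 5.74%.

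**Figure D4:**
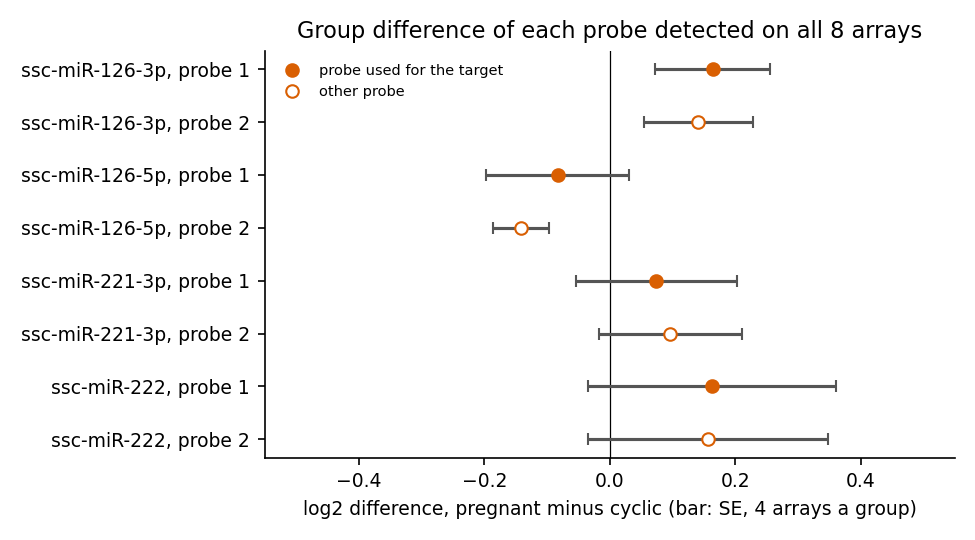
Log2 difference between pregnant and cyclic glands, with its SE over 4 arrays a group, for each of the 8 probes detected on all arrays; filled points are the probes used for the targets. In each target both probes fall on the same side of 0, with miR-126-5p below it (−0.08 and −0.14).

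The 4 targets were also compared with each other across the arrays, in 6 pairs. The neighbours miR-221-3p and miR-222 varied together, with a Pearson r of 0.89 (exact permutation p = 0.00188, adjusted over the 6 pairs 0.0113, n = 8 arrays) and a Spearman rho of 0.90 (exact permutation p = 0.00456, adjusted 0.0274). Cyclic replicate 2 and pregnant replicates 2 and 4 were the 3 highest arrays for both. Without the 2 arrays farthest from the median of miR-221-3p, r was 0.63 (exact permutation, adjusted p = 0.513), so the relation rested in part on them. Over the 6 arrays scanned together on 1 day r was 0.89 (exact permutation, adjusted p = 0.125), and it was 0.55 with quantile normalization (exact permutation, adjusted p = 0.321). Slides and groups held too few arrays for a value of their own. The relation was not particular to the neighbours. ssc-miR-30b-5p had r = 0.94 with miR-221-3p, and ssc-miR-27b-3p had r = 0.91 with miR-222. The permutation takes the arrays as interchangeable and does not account for effects shared within a group, slide or scan day.

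The strands of miR-126 followed each other less closely, with r = 0.31 (exact permutation p = 0.451, adjusted 0.541, n = 8) and rho = 0.60 (exact permutation p = 0.132, adjusted 0.227). Of the remaining pairs, miR-126-3p with miR-221-3p had r = 0.72 (exact permutation p = 0.0382, adjusted 0.115, n = 8) and miR-126-3p with miR-222 had r = 0.66 (exact permutation p = 0.0852, adjusted 0.170, n = 8). Both fell near 0, to 0.13 and −0.03, without the 2 arrays farthest from the median of miR-126-3p. For miR-126-5p, r was 0.50 with miR-221-3p and 0.11 with miR-222 (exact permutation, adjusted p = 0.309 and 0.799, n = 8). Whether one pair was tied more closely than another was not tested.

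**Figure D5:**
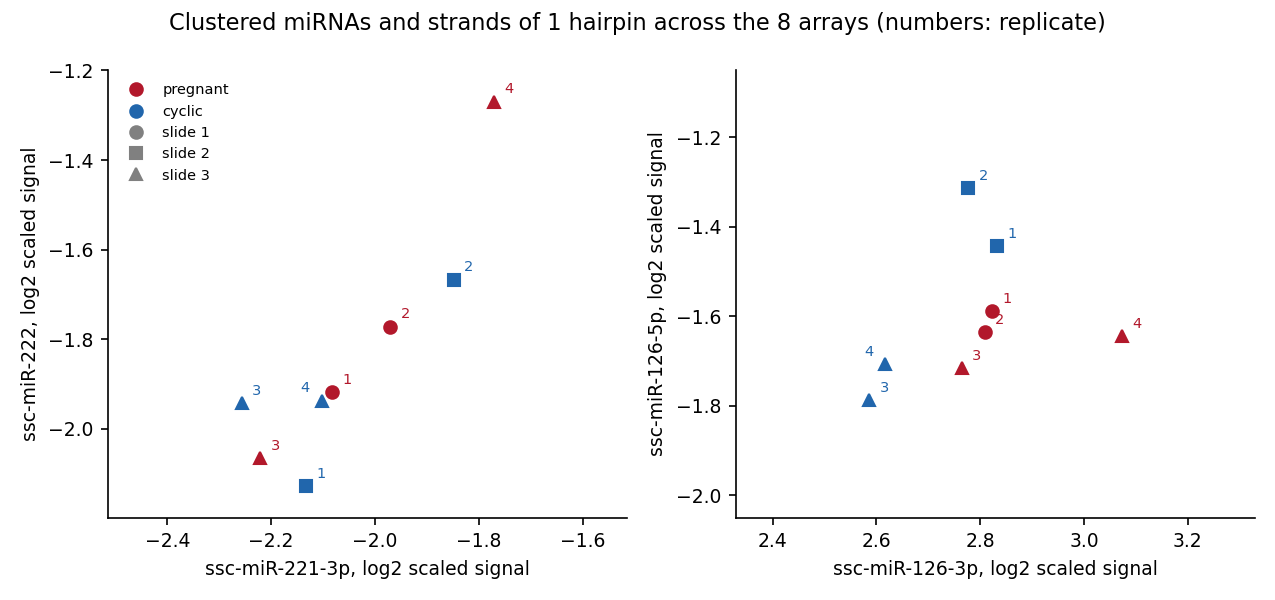
Log2 scaled signal of miR-222 against miR-221-3p (left) and of miR-126-5p against miR-126-3p (right) on the 8 arrays; colour gives the group, the symbol the slide and the number the replicate. The points of the left panel run along a line (r = 0.89), while in the right panel the cyclic arrays of slide 2 and pregnant replicate 4 stand apart from the rest (r = 0.31).

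No difference between the groups was detected for miR-222 relative to miR-126-3p. The difference miR-222 minus miR-126-3p was −4.74, −4.58, −4.83 and −4.34 in pregnant replicates 1 to 4, against −4.96, −4.44, −4.53 and −4.55 in cyclic replicates 1 to 4. The groups overlapped widely, with means of −4.62 ± 0.21 in pregnancy and −4.62 ± 0.23 in the cycle (SD, n = 4 each). They differed by −0.0015 ± 0.16 (SE; exact permutation p = 0.971, adjusted 0.971, for a contrast also chosen with both mean differences known), and the sign changed with the setting. Within the cluster, miR-222 minus miR-221-3p averaged 0.25 ± 0.17 in pregnancy and 0.17 ± 0.13 in the cycle (SD, n = 4 each), with overlapping groups and no test.

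The tested targets with the most similar pattern over the 8 arrays were looked up for each of the 4, as a description that is open to shared array effects. For miR-126-3p they were ssc-miR-30e-3p (r = 0.93, rho = 0.98), ssc-miR-450a (0.92 and 0.71) and ssc-miR-30c-5p (0.92 and 0.81). For miR-221-3p they were ssc-miR-30b-5p (r = 0.94, rho = 0.93), ssc-miR-30e-5p (0.89 and 0.83) and its neighbour miR-222. For miR-222 they were ssc-miR-27b-3p (r = 0.91, rho = 0.86), ssc-miR-22-3p (0.89 and 0.71) and miR-221-3p. For miR-126-5p they were ssc-miR-144 (r = 0.92, rho = 0.85), ssc-miR-148b-3p (0.74 and 0.74) and ssc-miR-9842-5p (0.72 and 0.64). The erythroid miR-144 was at the floor on 5 of the 8 arrays, so its r rests on cyclic replicates 1 and 2 and pregnant replicate 1. None of the targets named in this paragraph passed between the groups, ssc-miR-450a being closest (0.73, limma, adjusted p = 0.0621).

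Other miRNAs with reported roles in endothelium and vessel growth, listed by number, gave 64 further array entries, of which 34 were tested. Between pregnant and cyclic glands 2 were higher, 2 lower and 30 did not pass, which is 4 of 34 against 11.3% of all tested targets, a share that moves with the setting as given above. The median log2 difference was −0.03, against 0.00 for all tested targets. The higher ones were miR-503 and miR-424-3p (1.39 ± 0.32 and 1.03 ± 0.21, SE, limma, adjusted p = 0.0226 and 0.0141). Their hairpins form a cluster that has been reported to restrain endothelial growth in human, a role given for the cluster and not for miR-424-3p itself. miR-424-3p was detected on 5 of the 8 arrays, so the size of its difference depends on the floor. The other strand, ssc-miR-424-5p, was detected on 3 arrays and was not tested. The lower ones were miR-132, which represses RASA1 and promotes vessel sprouting (−1.35 ± 0.38, limma, adjusted p = 0.0444), and miR-155-5p, also an miRNA of leukocytes (−0.96 ± 0.25, limma, adjusted p = 0.0324). A further tested entry of miR-155, bta-miR-155, was detected on all 8 arrays and did not pass (−0.34 ± 0.20, limma, adjusted p = 0.269). Among the entries that did not pass were ssc-let-7f (0.10), ssc-miR-23b (0.21) and ssc-miR-27a (−0.49), which promote vessel growth in mouse or human and were named for their strong probe signal, with adjusted p of 0.740, 0.290 and 0.135 (limma).

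The counts of the other lists stand against the same 11.3% of all tested targets that passed. For smooth muscle and pericytes, 4 of 4 entries were tested and 0 passed. Of these, 3 had negative differences, −0.38 for miR-145-3p, −0.15 for miR-143-3p and −0.15 for miR-143-5p, and miR-145-5p had 0.14. The summed scaled signal of this list was 1.28 to 1.65 in pregnancy and 1.25 to 1.87 in the cycle. For the epithelial list, 8 of 10 entries were detected on 0 arrays. Of 5 tested fibroblast entries 0 passed and 4 had negative differences, and their summed signal was 3.85 to 4.31 in pregnancy and 3.57 to 8.49 in the cycle. Of 7 tested luteal and gonad-enriched entries, 1 passed, mmu-miR-21a-3p, with a negative difference (−2.18). Differences were negative in 3 of the 7 and positive in 4, the largest being 0.74 for ssc-miR-202-3p, 0.41 for ssc-miR-378 and 0.35 for ssc-miR-31. The summed signal was 37.1 to 45.4 in pregnancy and 43.7 to 67.6 in the cycle. Most of this sum came from 1 entry, ssc-miR-21, with means of 5.33 in pregnancy and 5.70 in the cycle (log2; limma, adjusted p = 0.142). The sum therefore does not stand for the list as a whole.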

How the data were processed

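The authors deposited Agilent Feature Extraction files with the intensity of every spot of a 1-colour Cy3 miRNA array on a linear scale (version 10.7.3.1 per the file headers, 10.7 per the submitters' processing notes). Per the labels' protocols, labelling used 100 ng of RNA per sample and an RNA integrity number over 8 was required. The authors also deposited a table of log2 values, 1 per spot and array, whose making is not stated in the headers. Compared with the scanner intensities of 2806 bright spots (r 0.878 to 0.974), it proved to be log2 and centred on the median of each spot, with the scaling between arrays unknown. Its column medians were −0.000302, 9.45e-05, −9.45e-05 and 0.0318 for pregnant replicates 1 to 4 and 0.0108, −0.000283, 0.000689 and −0.000205 for cyclic replicates 1 to 4. The deposited columns with 3 cells above 100 were handled as a score, and those cells as missing.

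Control spots (715 per array) and spots with outlier marks (384 to 453) were left out. Background-subtracted intensity was averaged per probe, scaled by the 75th percentile over targets detected on all arrays, floored at 0.0346 (the 1st percentile of detected probes, log2 −4.85) and put on the log2 scale. Detection needed at least 0.5 of a probe's spots well above background. The probe with the highest mean stood for its target. Targets detected on at least 4 arrays were tested with limma 3.58.1 (lmFit, eBayes with trend, 2-sided, R 4.3.3), a step tested on simulated data. Differences between 2 targets and correlations were tested by exact permutation (scipy 1.17.1), with Benjamini-Hochberg adjustment over 2 differences and over 6 pairs. The 2 differences were chosen with the mean differences of their targets known. Strand differences of other hairpins were added after seeing the data. The alternatives covered background, scaling, floor, probes, slide, scan day, replicate block and leaving out 1 array.

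Precision is limited by the number of arrays. The members, lists and tests were chosen with earlier results of these data known. Named targets were the 5 entries, the 3 targets most like each, and of each list those that passed and up to 4 of the brightest. Further entries of a number that passed (bta-miR-155 and ssc-miR-424-5p) were added. Mature sequences were not used here, so targets that share a seed were not listed.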

Additional observations from a re-analysis of the deposited data

Results flagged for a closer look

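The difference miR-222 minus miR-221-3p was 0.50 (log2) in pregnant replicate 4, against 0.16, 0.20 and 0.15 in pregnant replicates 1 to 3, a gap that took up 0.874 of the range of the group. In cyclic replicates 1 to 4 it was 0.00, 0.18, 0.31 and 0.17. Pregnant replicate 4 was also the highest array for miR-222 and for miR-221-3p, but was not outlying in either level, with gaps of 0.631 and 0.445 of the group's range. Among 14 such groups of 4 arrays examined this was the one outlying array, and chance alone marks about 1 in 20.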

How the results depend on the processing

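Over 30 other settings, the difference of miR-126-3p kept its sign (0.08 to 0.46) and passed in 1, scaling by the 75th percentile over all probes (0.46, adjusted p = 0.0472). That setting moved the median of all tested targets by 0.30, and relative to it the difference was 0.16. miR-222 kept its sign and did not pass in any (0.00029 to 0.46). miR-126-5p turned to 0.22 with that scaling and to 0.067 with slide as a block or within slide 3, and miR-221-3p to −0.0057 without pregnant replicate 4. Leaving out 1 array gave 0.10 to 0.21 for miR-126-3p, −0.16 to −6.51e-05 for miR-126-5p, −0.0057 to 0.15 for miR-221-3p and 0.00029 to 0.27 for miR-222. The strand difference of miR-126 was 0.18 to 0.33 in 26 settings, several unable to move it as given above (0.18 to 0.28 without 1 array). After adjustment 0 passed. In fits without 1 array the smallest exact p is 0.0571, so they could not pass. miR-222 minus miR-126-3p turned to 0.053 with quantile normalization, 0.0067 with the mean of detected probes, 0.031 with the authors' table, 0.0062 with the total gene signal, 0.036 with scan day as a block or within it, and 0.021 and 0.015 with other probes, the last 2 chosen after seeing the data, and ran from −0.11 to 0.067 without 1 array.

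The number of targets that passed was 11 with normexp, 62 with the 75th percentile over all probes (55 higher, 7 lower, against 11 and 13), 9 without scaling, 11 with the floor at the 5th percentile, 10 with the total gene signal, 1 with all targets tested, 9 within slide 3, 2 with scan day as a block or within it, 76 with array weights, and 7 to 81 without 1 array, 81 being without cyclic replicate 1. With the replicate number as a block 26 passed, and the differences of the 4 targets were unchanged by construction (0.16, −0.08, 0.07 and 0.16), with 0 of them passing. The strand difference of 0.25 is likewise fixed under the block, and its exact permutation p of 0.125 is the smallest 4 pairs can give, so this says nothing about the block. The labels link same-numbered pregnant and cyclic samples by the number alone, though those numbered 3 and 4 shared slide 3 and its scan day. Deviations from the group means of same-numbered samples correlated by −0.18 to 0.16. Of the 4 pregnant samples, 2 correlated best with the cyclic sample of their own number. The correlations depended on the scaling. Without scaling, r was 0.88 for the strands of miR-126, 0.92 for miR-126-3p and miR-221-3p, 0.76 for miR-126-3p and miR-222 and 0.89 for miR-126-5p and miR-221-3p, all 4 passing; array brightness is then shared by both members of a pair. With quantile normalization r was −0.50 for the strands, −0.13 for miR-126-5p and miR-222 and 0.55 for miR-221-3p and miR-222. Without the 2 outermost arrays it was −0.028 for miR-126-3p and miR-222 and 0.63 for miR-221-3p and miR-222, and within the scan day with both groups 0.89 for miR-221-3p and miR-222, which did not pass there. Where no cause is given here, the cause was not tested.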
